A study of Mus musculus and Homo sapiens with 10 samples.

Results

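L1PA6 is a subfamily of LINE-1 (L1), the retrotransposon that copies itself through an RNA intermediate, and its copies in human embryonic stem cells are described here. The members were chosen by name: they are the 932 copies that the authors' table of human L1 copies longer than 5000 bp assigns to L1PA6, out of 9840 copies in 64 subfamilies. The copies ran from 5013 to 7723 bp, with a median of 6127.5 bp, and 723 of them were at least 6000 bp long. RNA was sequenced from H1 cells, an established human embryonic stem cell line, at passage 69. The tested cells had been transduced with lentiviral vectors carrying hairpins against the DNA methyltransferases (DNMTs), and the control cells with an empty hairpin vector. Each condition had 1 library, made from cytoplasmic, DNase-treated, poly(A)-selected RNA. There is therefore no replicate check and no test between the conditions. Each interval given here is an exact 95% interval that covers counting error only.

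An intact L1 carries an internal promoter at its 5′ end and 2 reading frames, ORF1 for an RNA-binding protein and ORF2 for the endonuclease and reverse transcriptase that make a new copy. The L1PA subfamilies succeeded each other during primate evolution, with L1HS (also called L1PA1) the youngest and higher numbers older, so L1PA6 copies are old and carry many mutations. In embryonic stem cells L1 promoters are known to be held silent by DNA methylation and by KAP1 (TRIM28), a corepressor that KRAB zinc finger proteins bring to particular L1 sequences. RNA from an L1 copy can start at its own promoter or run into it from a neighbouring gene, and RNA counts over a whole copy do not separate these.

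The library totals were 92478094 reads in the DNMT knockdown library and 100921087 reads in the control library. L1 copies took 0.230% of the knockdown reads and 0.149% of the control reads. The labelled cell type was checked with 10 markers of human embryonic stem cells, which ranged from 20.1 to 893 RPKM in the knockdown library and from 17.3 to 921 RPKM in the control library. RPKM counts the reads per kilobase of a feature, scaled to the library total. The highest was POU5F1, a core pluripotency factor. Of the 10 markers, 1 was past 2-fold higher, L1TD1, at 223 RPKM in the knockdown library and 80.3 RPKM in the control library. Another 1 was past 2-fold lower, TDGF1, at 144 RPKM in the knockdown library and 418 RPKM in the control library. Over 11763 RefSeq genes with a mean of at least 1 RPKM these shares were 5.36% and 6.5%. Markers of other cells were mostly under 1 RPKM, with HAND1 (mesoderm) and CGA (trophectoderm) at 0 in both libraries. The summed level of 5 endoderm markers was 1.88 RPKM in the knockdown library and 0.221 RPKM in the control library, and FOXA2 made up 1.24 RPKM of the sum in the knockdown library and 0.00816 RPKM of that in the control library. The sum of 3 trophectoderm markers was 2.90 RPKM in the knockdown library and 11.4 RPKM in the control library, nearly all from KRT7. CDX2 went the other way, at 0.0517 RPKM in the knockdown library and 0.0190 RPKM in the control library. The sum of 5 fibroblast markers was 45.0 RPKM in the knockdown library and 59.8 RPKM in the control library, mostly from COL1A1 and COL1A2. TWIST2 was also lower in the knockdown library, while COL3A1 and POSTN were higher. COL3A1 stood at 0.0926 RPKM in the knockdown library and 0.00722 RPKM in the control library, and POSTN at 0.474 RPKM in the knockdown library and 0.175 RPKM in the control library. The sum of 2 neuroectoderm markers was 0.161 RPKM in the knockdown library and 0.287 RPKM in the control library, and that of 3 mesoderm markers 0.169 RPKM in the knockdown library and 0.249 RPKM in the control library. Their part in the L1PA6 values was not tested. Ribosomal RNA entries were close in both libraries, with RNA28S5 at 1357 RPKM in the knockdown library and 1399 RPKM in the control library.

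The DNMT genes themselves were lower in the knockdown library. In RNA from whole cultures, fewer cells expressing a gene and less RNA per cell cannot be told apart. DNMT1, which maintains methylation after replication, stood at 6.95 RPKM in the knockdown library and 24.5 RPKM in the control library. The de novo enzyme DNMT3B stood at 75.9 RPKM in the knockdown library and 181 RPKM in the control library, and DNMT3A at 12.2 RPKM in the knockdown library and 17.9 RPKM in the control library. Of 6 DNA methylation genes with a mean of at least 1 RPKM, 2 were past 2-fold lower and 0 past 2-fold higher, where 6.5% and 5.36% of 11763 RefSeq genes were. The 2 were DNMT1 and DNMT3B, of the family the hairpins were made against, so this count is no separate result about the list. None of 10 genes of the KAP1, zinc finger and HUSH repression pathways was past 2-fold in either direction. TRIM28 stood at 233 RPKM in the knockdown library and 182 RPKM in the control library, and ZNF93, a zinc finger protein known to bind L1PA copies, at 8.247 RPKM in the knockdown library and 8.253 RPKM in the control library. Of 7 L1 restriction genes 1 was past 2-fold lower, SAMHD1, a dNTP hydrolase, with 4.19 RPKM in the knockdown library and 10.8 RPKM in the control library.

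Most L1PA6 reads came from 1 copy. This copy, called copy 1 here, lies on chromosome 2 from 49454725 to 49460932 (hg19 is the human build in the submitters' processing notes). It held 23023 of 32952 L1PA6 reads in the knockdown library (69.9%, interval 69.4 to 70.4%) and 22096 of 32153 in the control library (68.7%, interval 68.2 to 69.2%). Its level was 40.1 RPKM in the knockdown library (interval 39.6 to 40.6) and 35.3 RPKM in the control library (interval 34.8 to 35.7), a ratio of 1.14 (interval 1.12 to 1.16). It was the highest of all 9840 L1 copies by mean level. On the same per-length scale, 5.12% of 22060 RefSeq genes were above it in the knockdown library and 5.38% in the control library. The gene table and the L1 table shared their library totals, so these levels can be set side by side.

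The L1 copies listed next to copy 1 were at low levels. Within 50000 bp the table listed 2 more copies. An L1PA6 copy 11648 bp away, starting at 49437038, had 1 read in the knockdown library and 4 in the control library. An L1PA7 copy that starts at 49407670 had 0 reads in the knockdown library and 6 in the control library. No hg19 gene annotation was used here, so whether this or any other copy lies in a gene, an exon or an intron was not analysed.

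**Figure D1:**
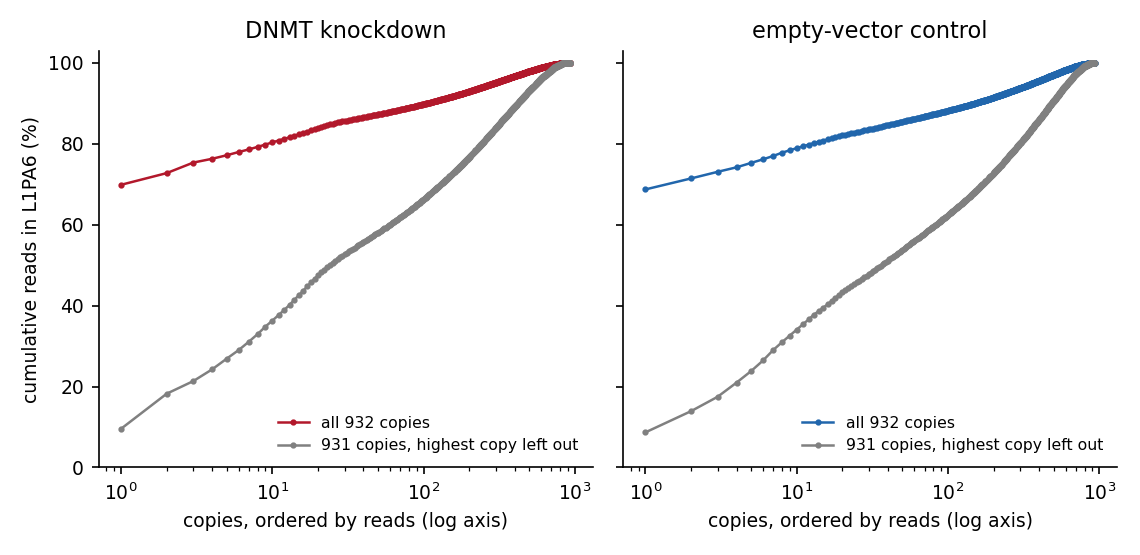
Cumulative percentage of L1PA6 reads (y axis) against the number of copies, ordered by their reads in that library (x axis, log scale), in the DNMT knockdown library (left) and the control library (right). The coloured curves start at 69.9% in the knockdown library and 68.7% in the control library, whereas the grey curves, drawn without the highest copy, need 24 copies in the knockdown library and 37 in the control library to reach 50%.

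The 10 copies with the highest mean level were 1.07% of the L1PA6 copies and held 79.8% of the reads in the knockdown library (interval 79.4 to 80.2%) and 78.6% in the control library (interval 78.1 to 79.0%). The 50 highest held 87.0% in the knockdown library and 85.2% in the control library. These copies were ranked on the libraries described, so the shares are a description of the skew. Ranked in each library on its own, the first 10 copies had 6 in common and the first 50 had 35 in common. Without copy 1 the skew was smaller. The next 10 copies then held 34.2% of the remaining reads in the knockdown library and 33.5% in the control library. With copies ranked in each library on its own, the 10 highest held 80.4% of L1PA6 reads in the knockdown library and 78.9% in the control library. In the neighbouring subfamilies they held 33.3% in the knockdown library and 10.5% in the control library for L1PA5, and 31.1% in the knockdown library and 30.6% in the control library for L1PA7. Whether these shares differ between subfamilies beyond replicate error could not be tested with 1 library a condition. A single copy with a high level in both libraries was not particular to L1PA6. An L1PB1 copy on chromosome 12, starting at 117192162, stood at 27.5 RPKM in the knockdown library and 27.8 RPKM in the control library. Over the 2002 copies outside L1HS and L1PA2 to L1PA8, it held 53.7% of reads in the knockdown library and 73.1% in the control library.

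Copies 1 and 2 were the only L1PA6 copies at 1 RPKM or more in both libraries. Copy 2, on chromosome 8 from 73968584 to 73974141, had 859 reads (1.67 RPKM) in the knockdown library and 872 reads (1.55 RPKM) in the control library. Its ratio of 1.08 had an interval of 0.977 to 1.18, so a difference was not detectable at this depth. Copy 3, on chromosome 12 from 46583731 to 46589869, had 950 reads (1.67 RPKM) in the knockdown library and 526 reads (0.849 RPKM) in the control library. Its level was 1.97 times the control level (interval 1.77 to 2.20), just under the 2-fold mark used for calls. Among all L1 copies, copies 2 and 3 ranked 4 and 6 by mean level.

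Copies 4 to 10 lay between 0.148 and 0.549 RPKM in the knockdown library and between 0.198 and 0.578 RPKM in the control library, and they differed between the libraries in both directions. Copy 4 (chromosome 1, 92745042 to 92751181) stood at 0.509 RPKM in the knockdown library and 0.578 RPKM in the control library. An L1PA7 copy 20578 bp away from it had similar values, 0.486 RPKM in the knockdown library and 0.634 RPKM in the control library, while an L1PA3 copy in the same 50000 bp had 0.0487 RPKM in the knockdown library and 0.00893 RPKM in the control library. Copy 5 (chromosome 18, 75289711 to 75295821) stood at 0.549 RPKM in the knockdown library and 0.430 RPKM in the control library, and copy 10 (chromosome Y, 14959405 to 14965588) at 0.369 RPKM in the knockdown library and 0.210 RPKM in the control library. Both were higher in the knockdown, with ratios of 1.28 (interval 1.08 to 1.51) and 1.76 (interval 1.41 to 2.20). Copy 6 (chromosome 10, 16213577 to 16219723) and copy 9 (chromosome 2, 24318027 to 24324128) were lower, at 0.322 and 0.220 RPKM in the knockdown library against 0.464 and 0.421 RPKM in the control library. Of the 10 highest copies 6 were higher in the knockdown and 4 lower. The next copy in rank, on chromosome 6 from 80287373 to 80293483, stood at 0.223 RPKM in the knockdown library and 0.315 RPKM in the control library.

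**Figure D2:**
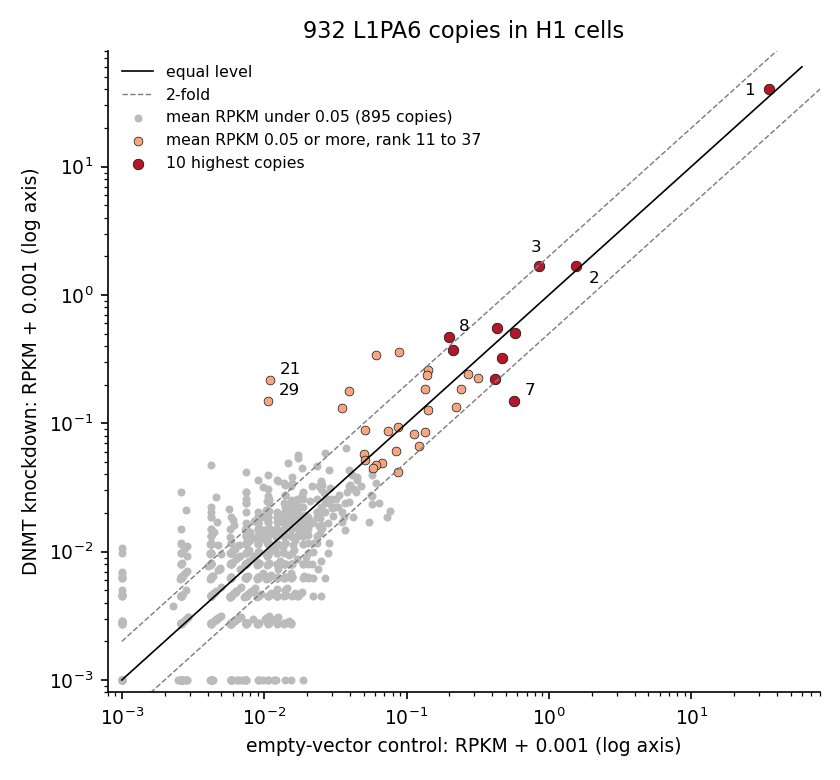
Level of each of the 932 L1PA6 copies in the DNMT knockdown library (y axis) against the control library (x axis), both as RPKM + 0.001 on log axes, with copies named by rank of mean level. Copy 1, at 40.1 RPKM in the knockdown library and 35.3 RPKM in the control library, lies close to the line of equal level and far from the other copies, and copies 21 and 29 lie far above the line.

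Calls of single copies were made on log2((knockdown RPKM + 0.01)/(control RPKM + 0.01)), which understates the change of low copies, for copies with a mean of at least 0.05 RPKM. Of the 932 copies 37 reached this level (3.97%) and 895 did not. Of the 37, 27 were at 0.05 RPKM or more in both libraries, 6 in the knockdown library alone and 4 in the control library alone. Those 10 passed through the library where they were higher, in some cases only slightly. In the knockdown 7 of the 37 were past 2-fold higher and 1 was past 2-fold lower. Copies 21, 23, 27 and 29, which are 4 of the 7, had passed through the knockdown library alone. Over all L1 copies at this level 61.1% of 1298 were past 2-fold higher and 1.23% past 2-fold lower. Of the 1298, 273 were L1HS, 562 L1PA2 and 232 L1PA3, with 93.0%, 67.4% and 45.3% past 2-fold higher. Subfamilies nearer to L1PA6 (18.9%) had lower shares, 20% of 70 L1PA4, 30% of 50 L1PA5 and 25% of 32 L1PA7 copies. Past 2-fold lower were 1.43%, 4% and 15.6% of these, beside 2.7% for L1PA6. Among the 27 copies at 0.05 RPKM or more in both libraries 3 were past 2-fold higher and 1 past 2-fold lower, beside 20.1% and 3.07% of 358 such copies of all subfamilies. The median log2 difference was 0.09 over the 37 L1PA6 copies and 1.19 over the 1298 copies. The exact interval of the ratio lay above 1 for 15 of the 37 and below 1 for 9, where it did for 77.5% and 5.47% of the 1298, and the 8 copies past 2-fold were among them. With no filter on low values, 30 of the 932 copies were past 2-fold higher with an interval above 1 and 19 past 2-fold lower with an interval below 1, beside 14.4% and 0.955% of all 9840 copies. In sign, 20 of the 37 were higher in the knockdown and 17 lower.

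The copies with the 2 largest log2 differences had few reads in the control library. Copy 21 (chromosome 7, 94423846 to 94429838) had 119 reads (0.215 RPKM) in the knockdown library and 6 reads (0.00992 RPKM) in the control library, a ratio of 21.6 (interval 9.66 to 60.2). Copy 29 (chromosome 10, 96865055 to 96871181) had 84 reads in the knockdown library and 6 in the control library, a ratio of 15.3 (interval 6.73 to 42.8). Both control values lay near the control median of all L1PA6 copies, 0.00797 RPKM, and both copies were among the 37 only through their knockdown values.

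Copy 15 (chromosome 11, 76929438 to 76935376) had 187 reads in the knockdown library and 36 in the control library, a ratio of 5.67 (interval 3.95 to 8.34). Copy 23 (chromosome 4, 131357975 to 131364174) had 102 reads in the knockdown library and 24 in the control library, a ratio of 4.64 (interval 2.95 to 7.57). Copy 13 (chromosome 7, 24312599 to 24318747) had 205 reads in the knockdown library and 54 in the control library, a ratio of 4.14 (interval 3.06 to 5.70). The remaining copies past 2-fold higher were copy 8, on chromosome 11 from 14616306 to 14622422, at 0.467 RPKM in the knockdown library and 0.198 RPKM in the control library, and copy 27, on chromosome 7 from 19988343 to 19994458, at 0.131 RPKM in the knockdown library and 0.0340 RPKM in the control library.

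The copy with the lowest log2 difference was copy 7 (chromosome 1, 173619247 to 173625381), the 1 copy past 2-fold lower. It had 84 reads (0.148 RPKM) in the knockdown library and 352 reads (0.569 RPKM) in the control library, a ratio of 0.260 (interval 0.203 to 0.331). The nearest listed L1 copy, an L1PA6 copy 40562 bp away, had 6 reads in the knockdown library and 12 in the control library. Next came copy 32 (chromosome 13, 40315332 to 40320382), with 19 reads in the knockdown library and 44 in the control library, and copy 9, with 124 in the knockdown library and 259 in the control library. Copy 32, at 0.0407 RPKM in the knockdown library and 0.0863 RPKM in the control library, was among the 37 only through its control value. Copy 25 (chromosome 14, 53551369 to 53557601) had 38 reads in the knockdown library and 76 in the control library, and copy 18 (chromosome 11, 75685709 to 75691062) had 66 in the knockdown library and 120 in the control library. The log2 differences of these 4 copies ran from -0.93 to -0.70, short of the 2-fold mark on this scale. The 19 copies among the 37 outside the 10 highest and the 10 named by change, copies 11 and 27 included, ranged from 0.0442 to 0.260 RPKM in the knockdown library and from 0.0340 to 0.315 RPKM in the control library, with 9 higher and 10 lower.

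**Figure D3:**
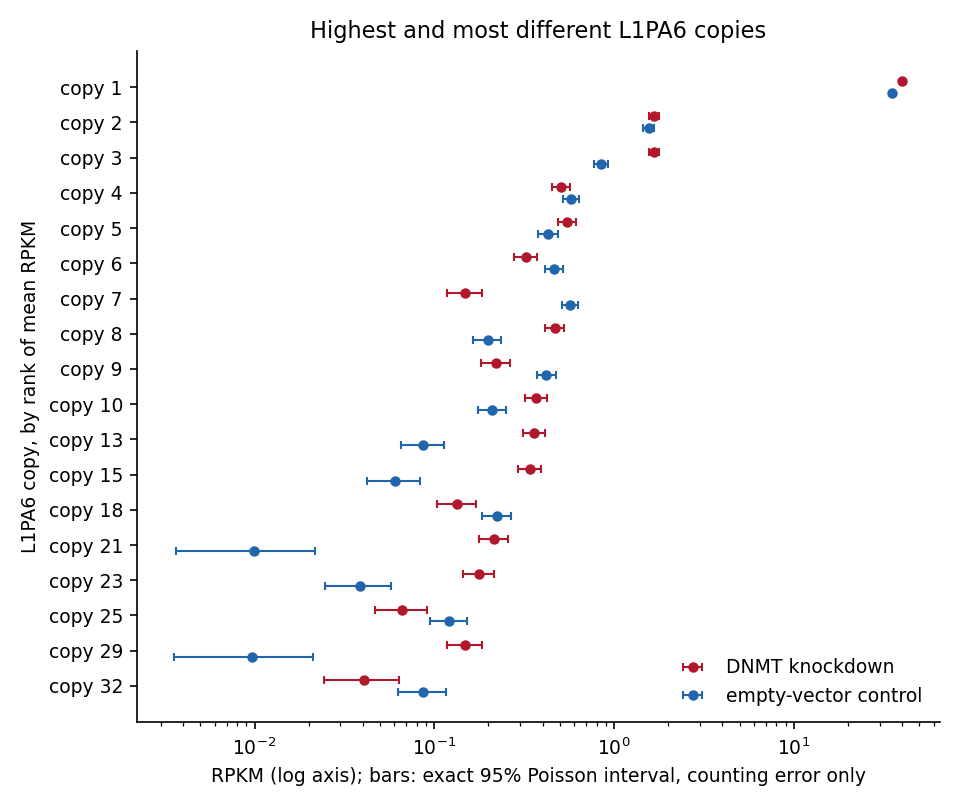
RPKM (log axis) of the 10 highest L1PA6 copies and of the 5 with the largest and the 5 with the smallest log2 difference, with the DNMT knockdown above the control in each row and bars for the exact 95% Poisson interval. Copies 1 and 2 differ little on this axis, copies 21 and 29 are far higher in the knockdown, and copy 7 is far lower.

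The bulk of copies gave few reads. The median copy had 4 reads (0.00703 RPKM) in the knockdown library and 5 reads (0.00797 RPKM) in the control library. In the knockdown library 89 copies had 0 reads, and in the control library 47 had none, with 23 copies at 0 in both. At the median length, 0 reads allow a level of up to 0.00529 RPKM in the knockdown library and 0.00485 RPKM in the control library, taken as 3 reads. No copy at 0 in one library exceeded 6 reads in the knockdown library or 9 reads in the control library. A further 508 copies in the knockdown library and 506 in the control library had 1 to 5 reads.

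**Figure D4:**
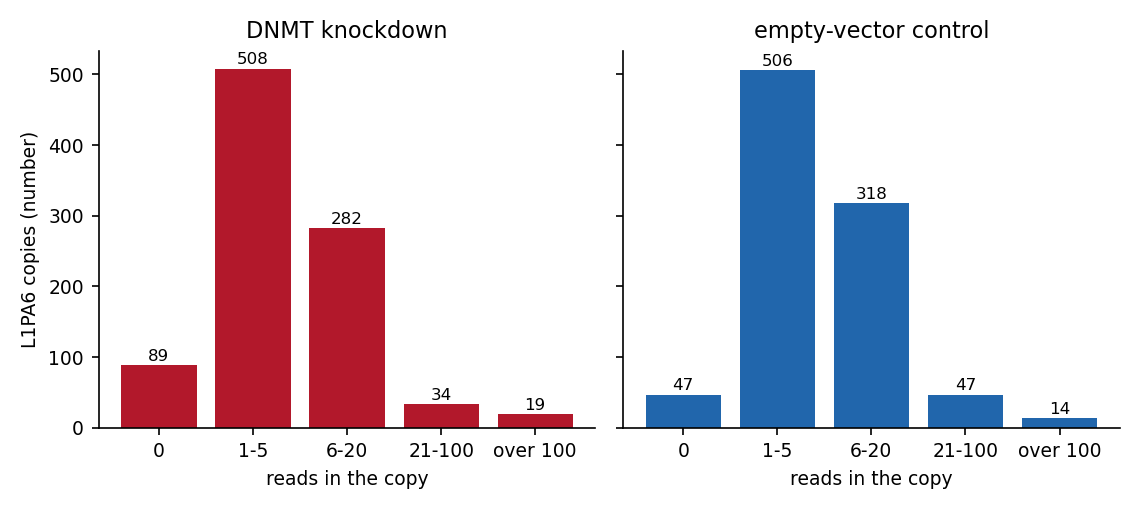
Number of L1PA6 copies (y axis) by reads in the copy (x axis) in the DNMT knockdown library (left) and the control library (right). Copies with 1 to 5 reads are the most frequent class in both, and 19 copies in the knockdown library and 14 in the control library have over 100 reads.

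The pooled level of the bulk was close to equal in the libraries. The 922 copies outside the 10 highest averaged 0.0130 RPKM in the knockdown library and 0.0123 RPKM in the control library, and their pooled reads gave a ratio of 1.05 (interval 1.02 to 1.09). Of these copies 414 were higher in the knockdown and 485 lower. The sign turned with the choice of copies. The 895 copies with a mean under 0.05 RPKM averaged 0.00910 RPKM in the knockdown library and 0.00951 RPKM in the control library, a ratio of 0.959 (interval 0.922 to 0.998). That limit takes out 6 copies at 0.05 RPKM or more in the knockdown library alone and 4 in the control library alone. It also takes out 27 copies at that level in both libraries, of which 3 were past 2-fold higher and 1 past 2-fold lower. The ratio therefore depends in part on the selection. All 932 copies averaged 0.0622 RPKM in the knockdown library and 0.0557 RPKM in the control library, a log2 difference of 0.16, and 79.7% of the difference between these means came from copy 1. In the knockdown library L1PA6 held 15.5% of all L1 reads and in the control library 21.4%. Its copies other than copy 1 held 4.66% in the knockdown library and 6.69% in the control library, with copy 1 still counted among all L1 reads. L1PA6 made up 9.47% of the copies listed.

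L1PA6 was then set against the younger and older L1PA subfamilies, each without its own 10 highest copies, since the study asked how L1 lineages of different age are kept silent. The ratio of knockdown to control was 3.38 for L1HS, 2.51 for L1PA2, 1.69 for L1PA3, 1.12 for L1PA4, 1.05 for L1PA5, 1.05 for L1PA6, 1.00 for L1PA7 and 1.10 for L1PA8. The interval for L1PA6, 1.02 to 1.09, overlapped those of L1PA5 (1.02 to 1.08), L1PA7 (0.961 to 1.04) and L1PA8 (0.973 to 1.25) and ended just below that of L1PA4 (1.09 to 1.14). The copies left out were ranked on the same libraries that are compared, and the overlap with L1PA5 depends on leaving them out. Over all copies the ratio was 1.42 for L1PA5 (interval 1.38 to 1.45) and 1.12 for L1PA6 (interval 1.10 to 1.14). The highest L1PA5 copy stood at 2.76 RPKM in the knockdown library and 0.0453 RPKM in the control library. Of single copies outside the 10 highest, 44.9% of L1PA6 copies were higher in the knockdown, against 98.8% for L1HS, 48.4% for L1PA5 and 44.5% for L1PA7. Median levels were lower in older subfamilies around L1PA6, with 0.0123 RPKM in the knockdown library and 0.0129 RPKM in the control library for L1PA5, 0.00703 RPKM in the knockdown library and 0.00797 RPKM in the control library for L1PA6, and 0.00361 RPKM in the knockdown library and 0.00464 RPKM in the control library for L1PA7. Means without the 10 highest copies had the same order, with 0.0168 RPKM in the knockdown library and 0.0160 RPKM in the control library for L1PA5, 0.0130 RPKM in the knockdown library and 0.0123 RPKM in the control library for L1PA6, and 0.00803 RPKM in the knockdown library and 0.00804 RPKM in the control library for L1PA7. Reads from near-identical copies may be credited to the wrong copy or subfamily, since no source used here gives how reads with several positions were placed.

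**Figure D5:**
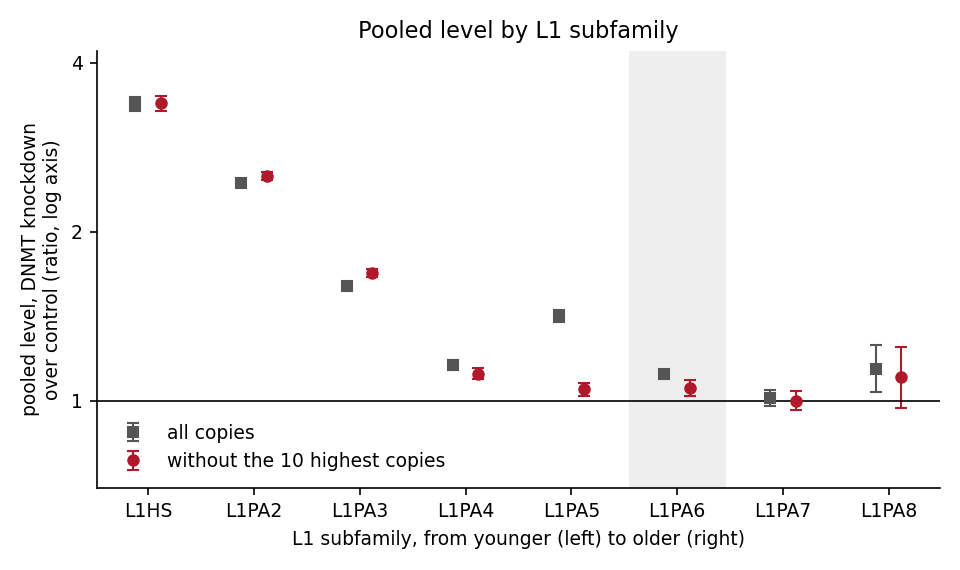
Ratio of the pooled level in the DNMT knockdown library to that in the control library (y axis, log scale) for L1 subfamilies ordered by age, over all copies (squares) and without the 10 highest copies (circles), with exact 95% counting intervals. L1PA6, on the shaded band, lies near 1, at 1.12 over all copies and 1.05 without the 10 highest, while L1HS lies at 3.38 on both measures.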

How the data were processed

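Members and lists were chosen with earlier results of these data known. RNA was sequenced from 2 human H1 libraries, mapped to groups by title. Bowtie 0.12.5 and the build hg19 are named in the submitters' processing notes. The authors deposited RPKM values per L1 copy and per RefSeq entry, and no source used here gives strand handling, the annotation or how reads with several positions were placed. Of the L1 copies, 10 have a start written in rounded form, 1 of them an L1PA6 copy, which was read as written.

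Whole reads were recovered from RPKM and copy length with 1 total per library: 100% of the values came out whole within 0.01 reads, so no read had been split between copies. The recovery was tested on simulated data. At these totals 100% of 317 RefSeq entries tried had a length giving whole reads in both libraries, against 7.89% at totals 1% higher. Genes were reduced to their highest entry.

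Intervals are exact: Poisson for a level, Clopper-Pearson for a share, and conditional binomial for a ratio (scipy 1.17.1). Copies named were the 10 highest by mean RPKM, those at 1 RPKM or more in both libraries, and the 5 largest and 5 smallest log2 differences among copies with a mean of at least 0.05 RPKM. Copy 27 was added to these after its value was seen. Alternatives covered scaling, length, filter, pseudocount, threshold and left-out copies. The mouse files were not used here.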

Additional observations from a re-analysis of the deposited data

How the results depend on the processing

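No paired analysis was possible because each condition had 1 library. The pooled log2 difference of 0.16 stayed within its counting interval when scaled to the median gene (a shift of 0.018), with reads summed over copies, or with copies of at least 6000 bp. It was 0.10 without the highest copy and also 0.10 without copies at 1 RPKM or more in both libraries. Divided by the other L1 copies, which were 0.74 higher in the knockdown, it was -0.58. The bulk difference of 0.071 became -0.67 by that division, -0.030 outside the 50 highest copies, -0.066 as the median of copy differences and -0.065 for copies under 0.05 RPKM, a choice made after seeing the data. The share of reads in the 10 highest copies was 79.2% in the knockdown library and 77.0% in the control library when ranked by the other library, and 83.1% in the knockdown library and 82.1% in the control library with copies of at least 6000 bp. It was 78.1% in the control library with RPKM in place of reads. Without the highest copy, chosen after seeing the data, it was 34.2% in the knockdown library and 33.5% in the control library. With no filter 30 copies were past 2-fold higher and 21 lower, and 30 and 19 of these also had a counting interval on that side of 1, a setting added after seeing the data. At a mean of at least 0.2 RPKM 3 were higher and 1 lower. At a 4-fold threshold 3 of the 37 copies were higher and 0 lower. With a pseudocount of 0.1 RPKM 5 of the 37 were higher and 1 lower, and with 0.001 RPKM 7 were higher and 2 lower. The share over all L1 copies is not given at these thresholds and pseudocounts, so the counts cannot be set against it. The cause of these changes was not tested. With 1 library a condition, no difference here could be compared with the spread between cultures, and at a median of 4 or 5 reads most single copies were too low to show a change.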

Other observations

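L1PA6 copies on the sex chromosomes were compared with those on autosomes, outside the 10 highest. The 815 autosomal copies averaged 0.0136 RPKM in the knockdown library and 0.0129 RPKM in the control library. Their medians were 0.00704 RPKM in the knockdown library and 0.00802 RPKM in the control library. Medians on chromosome X were nearly the same, 0.00707 RPKM in the knockdown library and 0.00802 RPKM in the control library. The 77 copies on chromosome X averaged 0.01016 RPKM in the knockdown library and 0.01015 RPKM in the control library, a ratio of 1.00 (interval 0.876 to 1.14), and 1 of them had a mean of at least 0.05 RPKM, beside 26 of the 815 autosomal copies (3.19%) and 0 of the 30 copies on chromosome Y. The 30 copies on chromosome Y averaged 0.00357 RPKM in the knockdown library and 0.00321 RPKM in the control library, with a median of 0 in both. Of their reads, the copy starting at 2673607 held 36 of 61 in the knockdown library and 23 of 60 in the control library. Levels are per listed copy and were not adjusted for how many of each chromosome a cell carries. Outside the 10 highest, the Y copies were the lowest of these 3 sets by mean. Copy 10, left out of this average, was the highest of the Y chromosome, and the order depends on leaving it out. With it, the 31 Y copies averaged 0.0154 RPKM in the knockdown library, above chromosome X, and 0.00988 RPKM in the control library.

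Pooled by length outside the 10 highest, the 95 copies under 5500 bp had a ratio of knockdown to control of 0.741 (interval 0.658 to 0.834), and the 113 copies from 5500 bp to under 6000 bp a ratio of 1.48 (interval 1.34 to 1.65). The first set holds 4 copies with a mean of at least 0.05 RPKM, all lower in the knockdown. Among them copy 18 had 66 reads in the knockdown library and 120 in the control library, and copy 32 had 19 and 44. The second set holds copy 15 and copy 21, which were far higher in the knockdown. In the 895 copies with a mean under 0.05 RPKM, a limit that takes such copies out, the 201 copies under 6000 bp averaged 0.00743 RPKM in the knockdown library and 0.00860 RPKM in the control library, a ratio of 0.867 (interval 0.787 to 0.955). The 632 copies from 6000 bp to under 6200 bp, the length of a full L1, had a ratio of 0.971 (interval 0.927 to 1.02). The 62 longer copies had a ratio of 1.11 (interval 0.942 to 1.31). With 1 library a condition these ratios were not tested against each other.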
